A study of Homo sapiens with 6 samples.

Results

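The genes described here are 5 of the 1630 in the table, chosen by name: PLAU, MMP1, F3, PI3 and A2M, which encode a pair of secreted proteases, tissue factor and a pair of protease inhibitors. They were picked with their difference between the groups known, and every gene of the table had been marked significant by the authors for that same difference. The values of the 5 genes between the groups are therefore given as a description, with no test.

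The cells were U87MG, a long-established glioblastoma line of human origin. Short hairpin RNA against CREPT was used in 3 libraries (shCREPT, genotype labelled CREPT Knockdown) and a control hairpin in 3 more (shControl, genotype labelled NC). CREPT is the product of RPRD1B and binds RNA polymerase II, and the series title links it to proliferation and an immunosuppressive surrounding in glioblastoma. RPRD1B has 0 rows in the table, so the knockdown was not checked here, and the labels do not say whether 1 hairpin or several were used, nor whether a library is a clone, a pool or a separate culture.

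Urokinase, the product of PLAU, cuts plasminogen into plasmin at the cell surface, and plasmin in turn opens matrix proteins and the proforms of metalloproteinases. MMP1 is the interstitial collagenase, which cleaves fibrillar collagen. F3 is tissue factor, the membrane receptor of factor VII that starts the clotting cascade and is known to be expressed by glioblastoma cells. On the inhibitor side, PI3 (elafin) blocks elastase-type serine proteases and is best known from skin and mucosa, and A2M (alpha-2-macroglobulin) traps proteases of many classes, after which the receptor LRP1 clears the complex.

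Promoter sequence was at hand for F3 and PLAU, 2 of the 5 genes and both higher in shCREPT, and is shown to give their start regions beside their levels. Each window runs from 250 bases before a RefSeq gene start through its first 50 bases (GRCh38.p14), 5′ to 3′ on the strand of the gene. F3 is read from the minus strand at chr1:94541710-94542009, and PLAU from the plus strand at chr10:73910882-73911181. Capitals mark letters that match any of the searched motifs on either strand: TGANTCA (AP-1), the NF-kappaB motif of 10 letters, GGAATG (TEAD), GGGCGG (SP1) and GCGNGGGCG (EGR).
F3: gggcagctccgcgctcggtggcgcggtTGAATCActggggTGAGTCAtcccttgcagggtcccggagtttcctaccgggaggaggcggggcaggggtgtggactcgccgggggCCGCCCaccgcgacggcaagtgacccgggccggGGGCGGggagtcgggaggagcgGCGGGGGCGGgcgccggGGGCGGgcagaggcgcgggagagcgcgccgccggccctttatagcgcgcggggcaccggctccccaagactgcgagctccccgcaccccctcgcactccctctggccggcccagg
PLAU: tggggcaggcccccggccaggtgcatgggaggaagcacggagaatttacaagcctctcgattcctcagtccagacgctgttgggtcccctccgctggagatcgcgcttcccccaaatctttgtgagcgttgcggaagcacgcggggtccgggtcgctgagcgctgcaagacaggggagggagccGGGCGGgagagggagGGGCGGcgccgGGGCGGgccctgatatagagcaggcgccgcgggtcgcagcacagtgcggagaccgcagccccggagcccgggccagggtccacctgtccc

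In the F3 window the AP-1 letters occur as TGAATCA, whose first base lies 223 bases before the start, and as TGAGTCA, 210 bases before it. SP1 letters occur 4 times there, at 137, 104, 78 and 65 bases before the start, and EGR letters once, at 82 bases, overlapping the SP1 match at 78. The PLAU window held 3 SP1 matches, at 66, 51 and 40 bases before the start, and none of the other motifs. A further PLAU window, at chr10:73910360-73910659, held no match to any of them. Of 35116 promoter windows of the same length, 7.71% held the AP-1 letters, 45% the SP1 letters, 9.43% the EGR letters, 14% the TEAD letters and 5.68% the NF-kappaB letters. The F3 window had a GC content of 77.3%, the printed PLAU window 70.0% and the further PLAU window 48.7%, against a median of 58.7% over all windows. A match is a description of letters and not a binding site.

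Values below are the authors' normalized expression values, on a linear scale whose unit (per length or not) is not given, so levels are compared between groups and never between genes. In shCREPT cells PLAU, MMP1, F3 and PI3 were all higher and A2M was lower, and in each of the 5 genes the groups did not overlap. That held for 93.3% of all listed genes (37.8% higher and 55.5% lower in shCREPT), and the authors' mark for 100% of them (40.3% up, 59.7% down), so neither count sets these genes apart.

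PLAU (ENSG00000122861, chromosome 10, 73909177 to 73917497, plus strand, GRCh38) had values of 305.79, 314.61 and 340.35 in shCREPT libraries, against 128.88, 141.77 and 127.45 in shControl libraries. The lowest shCREPT library stood 2.16-fold above the highest shControl library. Means were 320.3 ± 17.96 in shCREPT and 132.7 ± 7.89 in shControl (SD, n = 3 each), a ratio of 2.41. With coefficients of variation of 5.61% in shCREPT and 5.94% in shControl, PLAU varied less among replicates than the median tested gene (12.7% in each group). The gene overlaps C10orf55 on the opposite strand. The labels do not say whether the libraries keep the strand, so reads of the pair may not have been told apart.

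MMP1 (ENSG00000196611, chromosome 11, 102789920 to 102798160, minus strand) was listed at low values throughout, 0.78, 0.5 and 0.65 in shCREPT and 0.22, 0.04 and 0.1 in shControl. Every shCREPT library was above every shControl library, but shControl replicate 1 was well above the other two of its group. Means were 0.643 ± 0.140 in shCREPT and 0.120 ± 0.0917 in shControl (SD, n = 3 each), a ratio of 5.36. Set library by library, the ratio runs between 2.27 (lowest shCREPT over highest shControl) and 19.5 (highest over lowest), so its size is poorly fixed. MMP1 did not reach a value of 1 in any library and did not pass the filter on low values. It overlaps the pseudogene WTAPP1 on the opposite strand.

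F3 (ENSG00000117525, chromosome 1, 94529225 to 94541800, minus strand) had values of 10.81, 15.06 and 11.69 in shCREPT, against 3.64, 3.98 and 4.92 in shControl. Replicate 2 was the highest shCREPT library and replicate 3 the highest shControl library. The means of 12.5 ± 2.24 in shCREPT and 4.18 ± 0.663 in shControl (SD, n = 3 each) give a ratio of 2.995, and the lowest shCREPT library was 2.20-fold above the highest shControl library. No annotated gene overlaps F3.

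PI3 (ENSG00000124102, chromosome 20, 45174876 to 45176544, plus strand) had values of 17.3, 9.81 and 19.42 in shCREPT and 2.98, 2.63 and 0.99 in shControl. The shCREPT replicate 2 library was low and so was shControl replicate 3, yet the groups stayed 3.29-fold apart at their closest. Means were 15.5 ± 5.05 in shCREPT and 2.20 ± 1.06 in shControl (SD, n = 3 each), a ratio of 7.05. PI3 varied more among replicates than most genes: its coefficient of variation was 32.5% in shCREPT and 48.3% in shControl, exceeded by 16.6% and 7.86% of the 1184 tested genes. The replicate that was low for PI3 in shCREPT was the high one for F3.

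A2M (ENSG00000175899, chromosome 12, 9067664 to 9116229, minus strand) was listed at 0 in all 3 shCREPT libraries and at 0.77, 0.61 and 0.32 in the shControl libraries. All 3 shControl values were below 1, so A2M was low in both groups and did not pass the filter on low values. No fold can be given against a group at 0. The depth behind a listed 0 is unknown, so how low A2M was in shCREPT cannot be bounded. The authors' deposited table gives a log2 fold change of −6.51, rank 4 of its 973 down genes, and a fitted value of that kind depends on how the fit treats zeros. A2M overlaps the antisense gene A2M-AS1, which has no row.

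**Figure D1:**
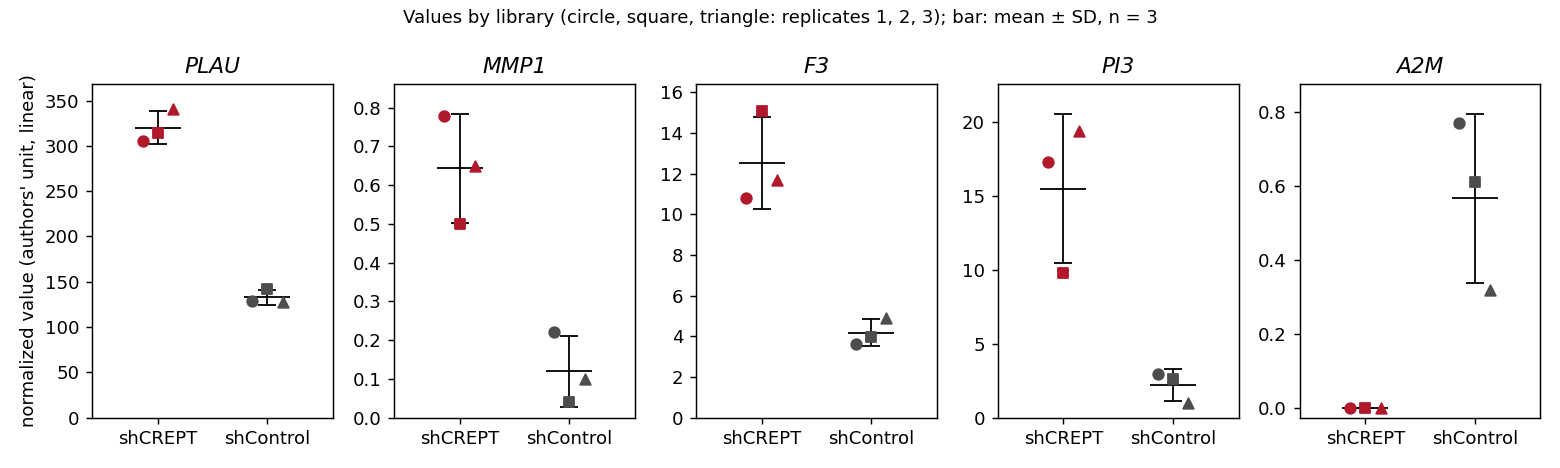
Normalized value (authors' unit, linear axis, own scale in each panel) of PLAU, MMP1, F3, PI3 and A2M in each shCREPT and shControl library, with the mean and SD of 3 libraries as bars. PLAU, MMP1, F3 and PI3 lie higher in shCREPT with no overlap, and A2M is at 0 in all shCREPT libraries. Of PLAU, F3 and PI3, which passed the filter, PI3 shows the widest spread relative to its mean.

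In the authors' deposited table the log2 fold changes were 1.29 for PLAU, 2.41 for MMP1, 1.54 for F3 and 2.87 for PI3. These place PI3 at rank 84, MMP1 at 126, F3 at 320 and PLAU at 433 of the 657 up genes. By adjusted p the order in that table is another: 1.18e-148 for PLAU, 6.76e-21 for F3, 2.5e-10 for PI3, 2.09e-05 for A2M and 0.00505 for MMP1. The threshold of that table can be read from its rows, the smallest absolute log2 fold change being 1.0009 and the largest adjusted p 0.0497.

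The wider protease network was described with 9 lists of secreted proteases, inhibitors, clotting factors and transcription factors. They hold 258 genes beside the 5, of which 26 have a row and 232 have none. A missing row says only that a gene is not among those listed and leaves its level unknown. Of the 19 genes that passed the filter, 16 fell and 3 rose in shCREPT (limma on log2(value + 1), Benjamini-Hochberg adjusted p under 0.05 over 1184 genes). Among all tested genes 97.9% passed that threshold, 57.3% as lower and 40.6% as higher (481 higher and 678 lower, which a median-of-ratios rescaling turned to 492 higher and 377 lower). Among these 19 the shares were 84.2% lower and 15.8% higher, and their median log2 change was −1.31 against −0.76 over all tested genes. PLAU, F3 and PI3 also belong to the lists and passed the filter. Leaving them out, all being higher, makes part of that excess of lower genes. The filter makes another part. PRSS35, SERPINA3 and PRSS27, for instance, were below 1 in every shCREPT library and passed it only through shControl. The 7 list genes too low to test were marked 3 up and 4 down by the authors. The split of the 19 is therefore no result about the lists. All these genes had been selected by the authors for this same contrast.

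Around urokinase, 3 of 18 genes of the plasminogen activation system have a row, and all 3 fell. LRP1, the endocytic receptor that removes urokinase and alpha-2-macroglobulin complexes, had values of 2.72, 2.04 and 2.54 in shCREPT and 17.15, 16.51 and 17.17 in shControl. It was 6.96-fold lower. On the log2 scale LRP1 changed by −2.39 ± 0.10 (SE; adjusted p of 5.39e-06 by limma). SERPINA5, the protein C inhibitor, which also inhibits urokinase, averaged 1.67 ± 0.434 in shCREPT and 10.3 ± 0.881 in shControl (SD, n = 3 each), 6.16-fold lower. THBS1, the matricellular protein thrombospondin-1, was 6.48-fold lower. The urokinase receptor PLAUR, the tissue activator PLAT and plasminogen itself (PLG) have no row.

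Among the other metalloproteinases, the 3 that could be tested changed in the direction opposite to MMP1. Of the 22 further genes of that family, 4 have a row: MMP7, MMP15 and MMP19 fell, and MMP13 was too low to test. MMP7 (matrilysin) averaged 0.783 ± 0.377 in shCREPT and 4.25 ± 1.14 in shControl, and the membrane-type MMP15 averaged 1.65 ± 0.122 in shCREPT and 4.49 ± 0.384 in shControl (SD, n = 3 each). MMP19 had values of 0.71, 0.49 and 1.09 in shCREPT and 6.58, 1.53 and 1.59 in shControl, so 1 shControl library sets its mean. Its log2 change of −1.07 ± 0.43 (SE, limma adjusted p = 0.0456) became −0.55 without shControl replicate 1 (limma adjusted p = 0.0167). Its call was lost when shCREPT replicate 1, 2 or 3 was left out (limma adjusted p = 0.0984, 0.125 and 0.0633), and over all its alternatives the adjusted p ran between 0.0167 and 0.228. MMP13, collagenase-3, was listed at 0.44, 0.51 and 0.23 in shCREPT and at 0.05 in each shControl library, and the authors' deposited table gives it a log2 fold change of 3.13.

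Of 37 ADAM and ADAMTS genes 5 have a row, and the 3 tested fell: ADAM12 (2.33-fold lower), ADAM28 (3.01-fold lower) and ADAMTS10 (3.41-fold lower). ADAM12 averaged 35.6 ± 2.58 in shCREPT and 83.0 ± 3.07 in shControl (SD, n = 3 each). ADAMTS5, an aggrecanase, and ADAMTS13, which cleaves von Willebrand factor, were too low to test and are down in the authors' deposited table. Among 55 other secreted and membrane proteases, HTRA1 (2.52-fold lower, averaging 42.6 ± 2.83 in shCREPT and 107 ± 3.18 in shControl; SD, n = 3 each), PRSS27 and PRSS35 fell. KLK6 was listed at 0.34, 0.6 and 0.09 in shCREPT and at 0 in every shControl library, too low to test. The lysosomal protease CTSF was the 1 gene with a row among 24 cathepsins and cystatins, and it fell 3.73-fold.

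The inhibitors were divided. SLPI, the leukocyte protease inhibitor that shares the WAP fold with elafin, rose with values of 21.06, 17.1 and 16.14 in shCREPT, against 6.14, 4.74 and 5.48 in shControl, a ratio of 3.32 (log2 change 1.56 ± 0.13 SE, limma adjusted p = 4.19e-05). SERPINA3, antichymotrypsin, averaged 0.710 ± 0.166 in shCREPT and 7.83 ± 0.709 in shControl (SD, n = 3 each), 11.02-fold lower. SERPINA5, named above, belongs to the same list of 39 inhibitors, of which 5 have a row. SERPINB5 (maspin) was listed at 0.18, 0.19 and 0.09 in shCREPT and at 0 in shControl, and SERPINB4 at 0, 0.03 and 0 in shCREPT and 0.12, 0.25 and 0.43 in shControl, both too low to test. SERPINB4 has a near-identical copy, SERPINB3, so its reads are uncertain. Beside A2M, the list of metalloproteinase and broad-range inhibitors gave 1 row, SPOCK2, too low to test and down in the authors' deposited table. The tissue inhibitors TIMP1 to TIMP4, RECK and the A2M relatives PZP and A2ML1 have no row.

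F3 is the only clotting gene of its list with a row. The 30 others, among them its ligand F7, its inhibitors TFPI and TFPI2, thrombomodulin (THBD) and the thrombin receptor F2R, have none, so the table shows tissue factor without its partners.

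Of 32 transcription factors of the AP-1, ETS, NF-kappaB and TEAD families and related regulators, 4 have a row. FOSL1, an AP-1 subunit, rose to 77.5 ± 5.60 in shCREPT, against 25.9 ± 2.18 in shControl (SD, n = 3 each), a ratio of 2.99. The ETS factor ETV4 rose 2.44-fold. EHF, an epithelial ETS factor, fell 12.5-fold, and EGR1, the early response zinc finger factor, fell 2.41-fold.

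A median-of-ratios rescaling, which raises shCREPT values above 0 and lowers those of shControl, shifted the groups by 0.88 (log2, before the added 1) and moved the median over tested genes to −0.13. Its factors came only from listed genes, all marked significant by the authors (59.7% down, 40.3% up). The method takes most genes as unchanged, so here it cannot decide which scaling is right or which calls hold. Under this rescaling none of the 19 genes changed sign, but 4 lost their call: ADAM28 (log2 change −0.49), PRSS27 (−0.40), MMP19 (−0.58) and EGR1 (−0.35). MMP15, ADAM12 and HTRA1 kept their call with log2 changes of −0.41, −0.34 and −0.45. The higher values of PLAU, F3 and PI3 became larger under the same rescaling, with log2 changes of 2.14, 2.13 and 3.06.

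**Figure D2:**
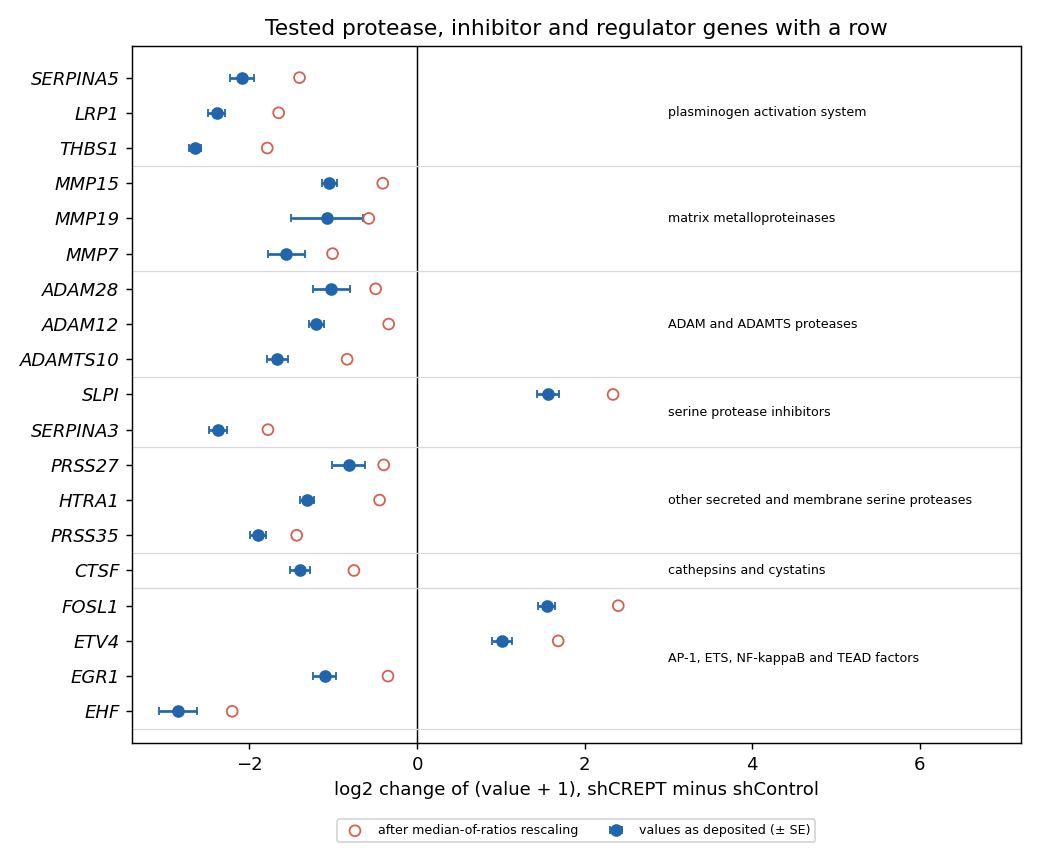
Log2 change of (value + 1), shCREPT minus shControl, for the 19 tested genes of the protease, inhibitor and regulator lists, as deposited (filled, ± SE) and after median-of-ratios rescaling (open). SLPI, FOSL1 and ETV4 lie to the right of 0 and the other 16 to the left under both, and each open point lies to the right of its filled one.

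In the genome, 76 protein-coding genes lie within 500 kb of the 5 genes and 5 of them have a row, 6.58%, against 6.12% of the 19951 annotated protein-coding genes. PI3 had 3 of these, all higher in shCREPT, the direction of 40.3% of all listed genes. SLPI starts 79.7 kb downstream of PI3, SDC4 (syndecan-4) 173.5 kb downstream and TOMM34 starts at −214.4 kb. SDC4 averaged 229 ± 11.1 in shCREPT and 78.2 ± 5.48 in shControl, a ratio of 2.93, and TOMM34 averaged 108 ± 3.26 in shCREPT and 49.1 ± 1.90 in shControl, a ratio of 2.20 (SD, n = 3 each). MMP1 lies in a cluster of metalloproteinase genes on chromosome 11, in which MMP13, whose start lies at −157.6 kb from that of MMP1, was listed higher in shCREPT, and MMP7, at 267.4 kb, lower. MMP3, MMP8, MMP10, MMP12, MMP20 and MMP27 lie between or beside them and have no row. PLAU, F3 and A2M had no neighbour with a row within that distance.

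**Figure D3:**
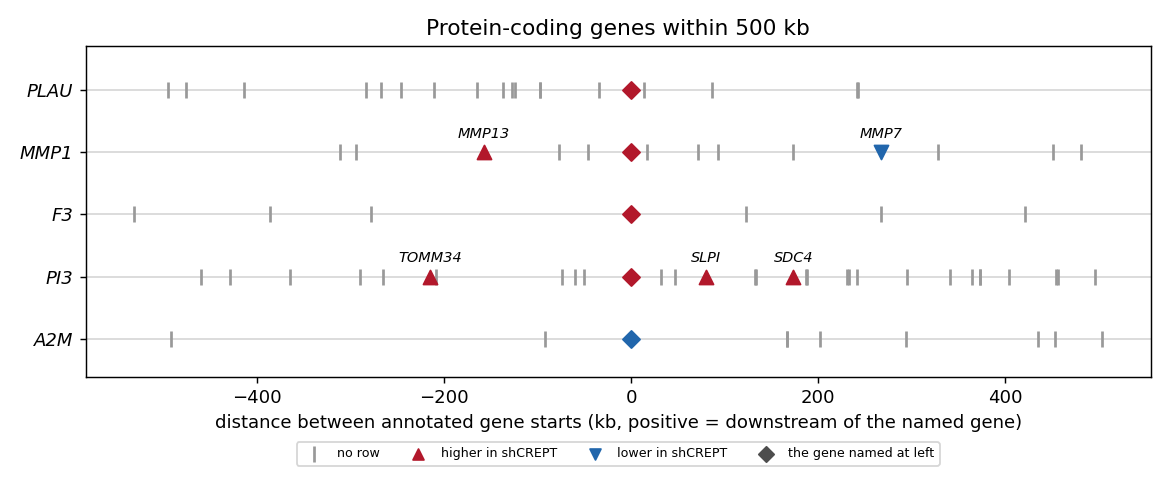
Distance between annotated gene starts (kb, in the direction of transcription of the gene named at left) for protein-coding genes within 500 kb of each of the 5 genes. Triangles mark neighbours with a row (up for higher and down for lower in shCREPT) and ticks those without. PI3 has 3 such neighbours, MMP1 has MMP13 and MMP7, and the others have none.

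For each gene, the 3 genes with the most similar pattern over the 6 libraries were found by the root mean square difference of log2(value + 1) centred on the gene mean, among genes with a mean of at least 1. Since each gene differs between the groups, this measure follows mainly the size of the difference. PLAU was closest to UHRF1 (0.05), TMEM132A (0.06) and GADD45A (0.06), all with nearly flat values within groups. F3 was closest to ENSG00000282024 (0.09), BMERB1 (0.10) and PPP1R26 (0.11), which share its higher values in shCREPT replicate 2 and shControl replicate 3. PI3 had no close match, with 0.37 for CDA, 0.39 for CCL4L2 and 0.46 for NT5E. CDA (cytidine deaminase) and CCL4L2 (a chemokine with near-identical copies, so its reads are uncertain) also had their lowest shCREPT value in replicate 2. MMP1 was closest to HS6ST3 (0.05), ENSG00000260196 (0.08) and VGLL2 (0.09), and A2M to KCNJ8 (0.10), APC2 (0.10) and LINC00705 (0.10), where low values and the added 1 shrink all differences. ENSG00000282024 and ENSG00000260196 are annotated as antisense genes, whose reads cannot be told apart from those of the opposite strand without strand information.

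**Figure D4:**
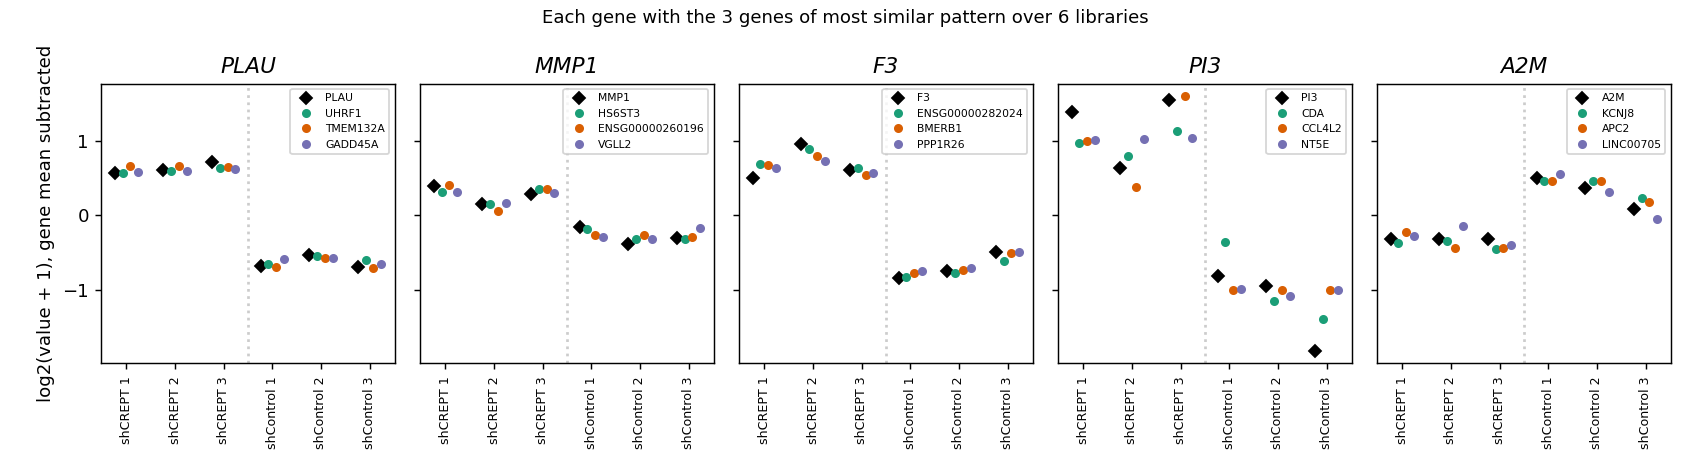
Log2(value + 1) with the gene mean subtracted, in each of 6 libraries, for the gene named above each panel (black) and its 3 most similar genes (colours). The points lie almost together for PLAU and F3, and also for MMP1 and A2M, where low values and the added 1 shrink all differences. They lie apart for PI3, whose closest gene differs by a root mean square of 0.37.

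Cell type markers moved with the groups beside these genes, and their part in the values was not tested. PI3 is known from squamous epithelium, and of 13 keratinocyte markers 3 have a row: KRT5 (7.83-fold lower) and KRT6A (2.19-fold lower, a gene with close copies) fell, and TP63 was too low to test. The summed level of those rows was 5.95 to 7.06 in shCREPT and 16.39 to 18.34 in shControl, opposite to PI3. A2M is known from astrocytes and vessels. The astrocyte and glioma list, 3 of 10 with a row, summed to 72.5 to 88.9 in shCREPT and 498 to 528 in shControl, and GFAP, S100B and SLC1A3 fell. The endothelial list, 2 of 8, summed to 11.6 to 13.7 in shCREPT and 43.3 to 45.3 in shControl, and CDH5 and KDR fell. The calls of SLC1A3 and KDR were lost under median-of-ratios rescaling. Of 8 fibroblast and pericyte markers COL1A2 fell and COL3A1 was too low to test, with sums of 432 to 492 in shCREPT and 1085 to 1099 in shControl. All these sums add values over genes although the unit is unknown. In shControl, COL1A2 makes up nearly all of the fibroblast sum and GFAP most of the astrocyte sum. None of 12 macrophage and microglia markers has a row. Of 8 neutrophil markers FCGR3B alone has one, listed at 0 in shCREPT and at most 0.64 in shControl. All libraries are labelled as U87MG cells, so these rows do not show that other cell types were in the culture. In such bulk RNA, fewer cells expressing a gene and less of its RNA per cell cannot be told apart. GFAP, an astrocyte lineage marker, was present in all libraries, at 45.5 ± 3.75 in shCREPT and 434 ± 13.5 in shControl (SD, n = 3 each).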

How the data were processed

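Total RNA of 6 U87MG libraries (3 per group) was made into libraries with NEBNext Ultra reagents, per the labels' protocols. HISAT2, HTSeq and the build GRCh38 are named, without role or version, per the submitters' processing notes. The deposited table of 1630 genes holds, per the file headers, a normalized signal value per library; how it was normalized is not stated in the sources used here. Further columns hold the authors' fold change (a ratio), the log2 of that ratio, and the authors' p-value before and after adjustment. Every row is marked significant, so there are no unchanged genes for comparison. Summed over the listed genes, libraries held 31893.69 to 33330.8. Depth is unknown, so no counting interval is given.

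The 5 genes, the lists and the tests were chosen with earlier results of these data known. Genes reaching a value of 1 in 3 or more libraries (1184, leaving out 446) were compared on log2(value + 1), a scale that understates changes of low genes, with limma 3.58.1 in R 4.3.3 (Benjamini-Hochberg, threshold 0.05, no trend, robust option or covariate). The design assumed a table of all genes and was kept. The step was tested on simulated data in which most genes did not change. This table differs, holding only genes marked significant, so that test does not bear on the calls made here. Named were the 5 genes, every list gene past the threshold, list genes too low to test, the 3 most similar genes of each, neighbours with a row and markers with a row. Coordinates are from GENCODE release 29, where 1549 identifiers matched, and promoter sequences from RefSeq (GRCh38.p14). No library was a copy of another (96% or more of the values differed in every pair). Since separate cultures are not stated, p-values reflect only how these libraries vary, and that variation may be technical. Other work used Python 3.11.15, numpy 2.4.6, pandas 2.3.3 and matplotlib 3.10.9. Alternatives were other pseudocounts, filters, scalings and limma options, the replicate block, each library left out, a narrower motif and other windows.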

Additional observations from a re-analysis of the deposited data

How the results depend on the processing

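The 5 genes kept their direction under every setting run, which lends that direction no support. They were picked for this difference and their groups do not overlap, so no left-out library or added value could turn it. Median-of-ratios rescaling could not either, as it raises shCREPT values above 0 and leaves A2M at 0 there. The changes in mean log2(value + 1), on the values without rescaling, were 1.26 for PLAU, 0.55 for MMP1, 1.38 for F3 and 2.38 for PI3. They are not the authors' log2 fold changes, which are given above. Median-of-ratios rescaling gave 2.14, 0.77, 2.13 and 3.06 for the same genes in that order, as its factors raise shCREPT values above 0 and lower shControl values. Quantile normalization moved PLAU to 1.49 and MMP1 to 0.68. A pseudocount of 5 gave 0.14 for MMP1, 0.93 for F3 and 1.49 for PI3, and one of 0.1 gave 1.82 for MMP1, as the added value shrinks low genes by construction. Leaving out 1 library gave 1.22 to 1.31 for PLAU, 0.49 to 0.62 for MMP1, 1.25 to 1.48 for F3, 2.07 to 2.66 for PI3 and a difference of means of −0.69 to −0.47 for A2M (−0.57 with all libraries, −0.41 after median-of-ratios rescaling). With no filter, where all 1630 listed genes were tested, 6 pathway genes were called higher, against 3, and 19 lower, against 16. Over the whole table that run called 610 genes higher and 887 lower. With a minimum of 10 in 3 libraries, where fewer genes are tested, 2 pathway genes were called higher, against 3, and 6 lower, against 16. That minimum left 487 genes and called 485 (214 higher, 271 lower), against 1159 of 1184 (481 higher, 678 lower). Median-of-ratios rescaling called 377 lower and 492 higher, so the split of calls turned, and 12 pathway genes lower. Its factors came only from genes marked significant, so this turn does not measure how the calls depend on normalization. A window of 100 kb left 1 neighbour with a row and one of 1000 kb gave 7. Deviations from the group means were not shared by libraries of one number (r = −0.109, 0.018 and −0.179), so the numbers were not taken as pairs. With the replicate block the fit called 1156 genes, 3 pathway genes higher and 16 lower. Leaving out 1 library gave 1137 to 1152 called genes (475 to 481 higher, 662 to 672 lower) and 15 to 16 pathway genes lower, MMP19 being the gene lost. Unknown depth sets no bound on A2M or MMP1.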
